A study of Homo sapiens with 24 samples.

Results

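The EGF receptor family and its ligands were followed as 9 genes in RNA-seq of Panc-1 cells, a human pancreatic ductal adenocarcinoma line. The genes were the receptors EGFR, ERBB2 and ERBB3, the ligands TGFA, HBEGF, AREG, EREG and NRG1, and ERRFI1, an intracellular inhibitor of EGFR and ERBB2. They were taken by symbol from the 3 deposited gene tables, which list 14413 genes in any table and 13506 genes in all of them. Of the 9 genes, 7 were listed for every line, EREG was listed for Tet-PTF1a alone, and AREG was in no table. Each table had been restricted by the authors to genes above a low CPM, so an unlisted gene has no value here.

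The comparison covered 3 clonal Panc-1 lines. Tet-One cells carried the empty doxycycline-inducible plasmid, Tet-MIST1 cells carried a myc-tagged rat MIST1, and Tet-PTF1a cells carried a myc-tagged mouse PTF1a. MIST1 and PTF1a are basic helix-loop-helix transcription factors of pancreatic acinar cells. Each line was grown without doxycycline (Control) or with 1 µg/ml doxycycline for 72 h (Dox), with 4 replicate libraries in each of the 6 groups and 24 libraries in all. Each line came from a selected clone, so the inserted gene and the clone cannot be told apart in a comparison between lines, whereas Dox was compared with Control within a clone. Cells were used at passage 32, or at passage 33 for Tet-MIST1.

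EGF family ligands are made as membrane precursors, are released by metalloproteases of the ADAM family, and bind receptor tyrosine kinases that act as dimers. EGFR binds TGFA, AREG, EREG and HBEGF. ERBB3 binds NRG1 but has a weak kinase and signals with a partner, most often ERBB2, which has no known ligand of its own. In the pancreas, EGFR and its ligands are known for their part in acinar-to-ductal metaplasia, and ERRFI1 is itself switched on by EGFR signalling as a feedback brake.

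Counts per library, summed over the listed genes, ranged from 17210989 to 43018494, with the lowest depths in Tet-PTF1a. The epithelial keratin genes KRT8, KRT18, KRT19 and KRT7 were listed in every group. Group means were 741.7 to 3228 CPM for KRT8, 522 to 1837 CPM for KRT18, 68.4 to 935.7 CPM for KRT19 and 1.44 to 5.45 CPM for KRT7. In Tet-PTF1a, KRT8 (1820 to 741.7 CPM), KRT18 and KRT19 were lower in Dox than in Control, whereas KRT7 went from 1.44 to 4.52 CPM. The mesenchymal gene VIM was at 3808 to 6955 CPM. The leukocyte genes PTPRC and CD3E and the endothelial genes PECAM1, CDH5 and VWF were in no table. Nor were the acinar genes CPA1 and CTRC or the fibroblast genes PDGFRA, DCN and LUM. CD68, a lysosomal gene used as a macrophage marker, was listed in every group, at group means of 33.3 to 251.6 CPM. For Tet-PTF1a it was at 65.4 CPM in Control and 33.3 CPM in Dox. PDGFRB, a fibroblast marker, was listed in every group at 0.60 to 1.53 CPM. CEL, an acinar lipase, was listed in every group at 0.46 to 0.86 CPM. In Tet-PTF1a, CEL was at 0.61 CPM in Control and 0.62 CPM in Dox. PRSS1, acinar trypsinogen, was listed for Tet-PTF1a alone, at 0.057 CPM in Control and 3.15 CPM in Dox. Their part in the results was not tested. The human PTF1A row was listed for Tet-PTF1a alone, at 0 to 0.056 CPM in Control and 2.73 to 6.97 CPM in Dox. In Control, PRSS1 and PTF1A lay under the filter of 0.5 CPM. Only a rise could thus bring them into the list, so their direction is no result. The human MIST1 gene, BHLHA15, was not listed for Tet-MIST1. These human rows check neither transgene. The first Dox library of Tet-One and the first Dox library of Tet-MIST1 stood apart from the other 3 libraries of their groups, with an SD of the log2 deviations of 0.570 and 0.225 over genes, against 0.0696 to 0.124 in the Control libraries of these lines. The other Dox libraries had 0.1925 to 0.219 in Tet-One and 0.0982 to 0.155 in Tet-MIST1. Each of these was set against a mean that holds the first Dox library of its line. The EGFR responses, the spans of the group means of EGFR, ERBB3, HBEGF and NRG1 and the count of genes in Tet-One are also given without the first Dox libraries.

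ERBB3 and NRG1, a receptor and its ligand, were the members with the largest responses, and both responded in Tet-PTF1a in opposite directions. In Tet-PTF1a, 3 of the 8 listed members rose (ERBB3, TGFA, EGFR), 3 fell (NRG1, ERRFI1, ERBB2) and 2 did not pass the test (HBEGF, EREG). The test was edgeR's quasi-likelihood test at a false discovery rate (FDR, Benjamini-Hochberg over all genes of the table) under 0.05, by which 48.2% of the 14053 genes of that line were called, 23.8% higher and 24.4% lower. In Tet-MIST1, 3 of 7 members fell (NRG1, HBEGF, ERRFI1) and none rose, where 20.6% of 13623 genes were called, 11.9% higher and 8.77% lower. In Tet-One none of the 7 members passed, and 0% of 13428 genes were called by edgeR, with 401 at an unadjusted p under 0.05 and 0 called by DESeq2. Without the first Dox library of Tet-One, 1636 genes had an unadjusted p under 0.05 and 1 was called, HMOX1, heme oxygenase 1 (log2 fold change -0.43, edgeR FDR = 0.0114), which is no member. With all 24 libraries in 1 fit, 1618 genes had an unadjusted p under 0.05 in Tet-One and 0 were called.

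**Figure D1:**
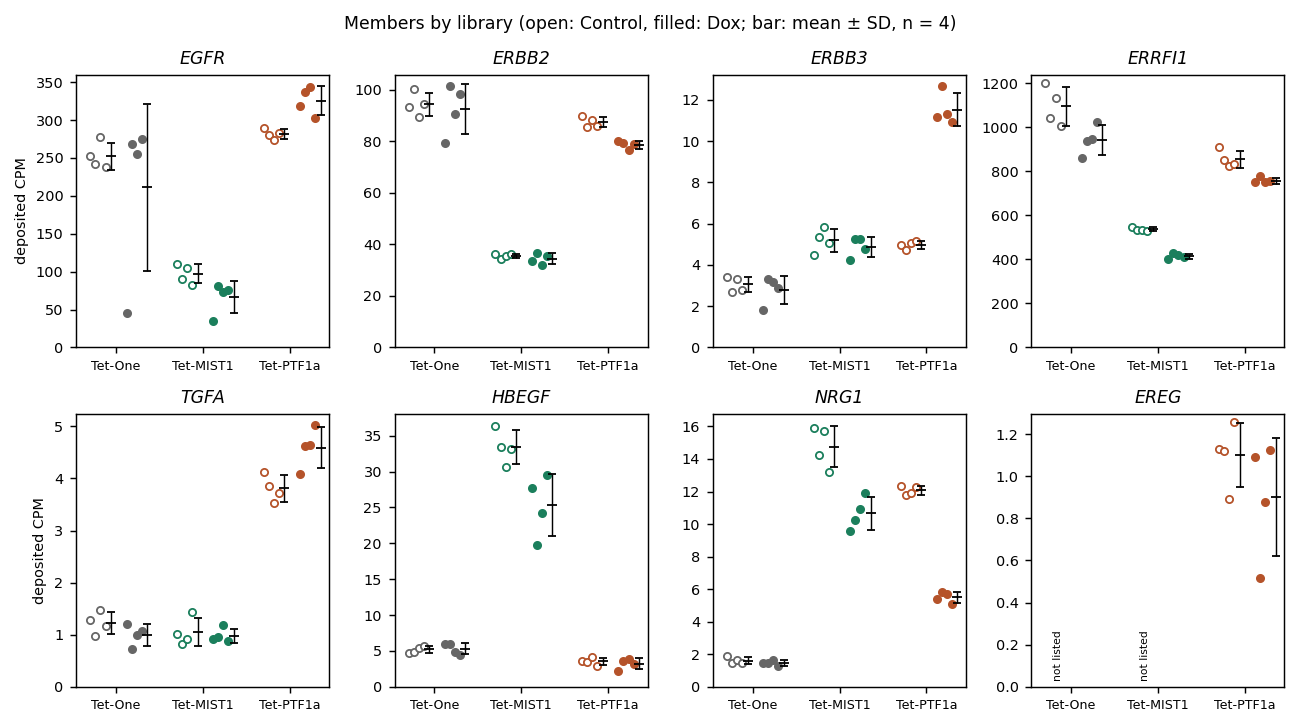
Deposited CPM of the 8 listed members in each library (y axes, linear from 0), by line (x axes), with open circles for Control, filled circles for Dox and the mean ± SD of 4 libraries beside them. The Tet-PTF1a Dox libraries sit above all others for ERBB3, and the first Dox library of Tet-One sits far below its group for EGFR, at 45.8 CPM.

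Among the receptors, EGFR had the highest mean in every group. ERBB2 was above it in the first Dox library of Tet-One, at 79.4 against 45.8 CPM. Per kilobase of exon, this also held in the first Dox library of Tet-MIST1, where EGFR made up 43.9% of the 3 receptors. EGFR (hg19 chromosome 7, 55086725 to 55275031, plus strand) had deposited values of 253, 242, 277 and 238 CPM in the Tet-One Control libraries and 45.8, 268, 255 and 275 CPM in the Tet-One Dox libraries. The other three Tet-One Dox libraries thus lay within the range of the Control libraries and the first lay far below it. The log2 fold change was -0.25 ± 0.45 (SE, n = 4 against 4; FDR = 0.897 by edgeR), and it was 0.08 without the first Dox library.

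In Tet-MIST1, EGFR stood at 110.1, 90.3, 105 and 83.0 CPM in Control and at 35.0, 80.6, 73.4 and 76.4 CPM in Dox. Every Dox library was below every Control library. In that line 27.1% of genes had groups that did not overlap, 14.4% in this direction. The log2 fold change of -0.54 ± 0.20 (SE) did not pass the test (edgeR FDR = 0.0747), and it was -0.33 with an FDR of 0.0213 by edgeR without the first Dox library and -0.65 with an FDR of 0.0423 by edgeR without the second. The fall was called in these 2 of 17 alternative fits.

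In Tet-PTF1a, EGFR stood at 290.0, 280.5, 273 and 283 CPM in Control and at 319, 337, 344 and 302 CPM in Dox. Here every Dox library was above every Control library. In that line 42.3% of genes had groups that did not overlap, 20.8% in this direction. EGFR rose by a log2 fold change of 0.21 ± 0.036 (SE), or 1.15-fold (edgeR FDR = 0.000338), but did not pass when all 24 libraries shared 1 estimate of spread (FDR = 0.742 by edgeR).

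The Dox response of EGFR in Tet-PTF1a was higher than that in Tet-MIST1 by 0.77 ± 0.25 on the log2 scale (SE; edgeR FDR = 0.0253), where 36.4% of 13506 genes differed, 17.8% higher and 18.6% lower. It remained past the threshold without the first Dox library of Tet-MIST1, at 0.55. The call was lost in 4 of the 16 fits that left out 1 library, namely without the first or the third Control library of Tet-MIST1 and without the second or the third Dox library of Tet-PTF1a, at 0.70 to 0.73. It was also lost with the exon length trend removed together with the replicate block (0.70, edgeR FDR = 0.106). Against Tet-One, the EGFR response was not shown to differ in Tet-PTF1a (log2 difference 0.46, 95% interval -0.56 to 1.48) or in Tet-MIST1 (-0.29, interval -1.45 to 0.86). With the first Dox libraries of Tet-One and Tet-MIST1 both left out, an alternative chosen after seeing the data, the difference in Tet-MIST1 was -0.42 (edgeR FDR = 0.0236).

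The libraries that stood apart also differed by gene length. In the first Dox library of Tet-One, log2 deviations from the other 3 libraries fell by 1.44 for each 10-fold increase in exon length, and EGFR deviated by -2.54, the 24th lowest of 13428 genes. In the first Dox library of Tet-MIST1 the slope was -0.53 and EGFR deviated by -1.13, the 14th lowest of 13623 genes. In Tet-PTF1a the slopes were between -0.092 and 0.075 and the EGFR deviations between -0.14 and 0.11. The part of gene length in the EGFR values was not tested beyond a fit with the length trend removed, in which EGFR in Tet-MIST1 was -0.46 (edgeR FDR = 0.158) and in Tet-PTF1a 0.20 (edgeR FDR = 7.58e-08).

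**Figure D2:**
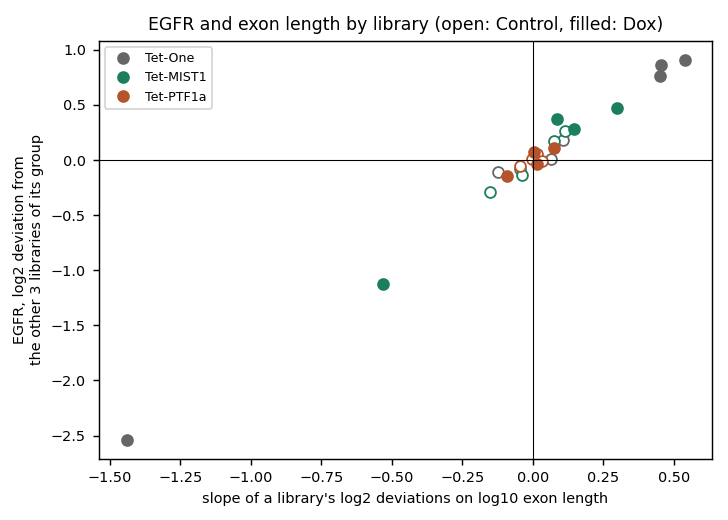
Log2 deviation of EGFR from the other 3 libraries of its group (y axis) against the slope of all log2 deviations of that library on log10 exon length (x axis), 1 point for each of 24 libraries, open for Control and filled for Dox. The first Dox library of Tet-One, at -1.44 and -2.54, and that of Tet-MIST1, at -0.53 and -1.13, lie apart from the other libraries. The other Tet-One Dox libraries lie at slopes of 0.45 to 0.54 and EGFR deviations of 0.76 to 0.91. Each of them is set against a mean that holds the first.

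ERBB2, the partner receptor without a ligand (chromosome 17, 37844337 to 37884915, plus strand), fell slightly in Tet-PTF1a. It stood at 89.7, 85.6, 88.3 and 86.0 CPM in Control and at 80.0, 79.3, 76.4 and 78.8 CPM in Dox. The groups did not overlap, in a line where this held for 21.4% of genes in this direction. The log2 fold change was -0.15 ± 0.030 (SE; edgeR FDR = 2.35e-05). This call was lost when all 24 libraries shared 1 estimate of spread (edgeR FDR = 0.0587). In Tet-One, ERBB2 ranged from 89.3 to 100.2 CPM in Control and from 79.4 to 101 CPM in Dox, and in Tet-MIST1 from 34.4 to 36.3 and from 31.8 to 36.6 CPM. Neither line passed the test, with log2 fold changes of -0.023 (95% interval -0.22 to 0.18) and -0.035 (-0.15 to 0.083). The ERBB2 response of Tet-PTF1a was not shown to differ from that of Tet-One (log2 difference -0.13, 95% interval -0.33 to 0.065) or of Tet-MIST1 (-0.11, interval -0.23 to 0.016). The first difference was called at -0.19 without the first Dox library of Tet-One (edgeR FDR = 0.0094) and at -0.23 with the exon length trend removed (edgeR FDR = 0.0275; with the replicate block as well -0.22, edgeR FDR = 0.022). The second was called at -0.14 without the third Dox library of Tet-MIST1 (edgeR FDR = 0.0392) and at -0.19 with that trend removed (edgeR FDR = 0.0115; with the replicate block as well -0.19, edgeR FDR = 0.0211).

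ERBB3, the receptor for NRG1 (chromosome 12, 56473809 to 56497291, plus strand), rose in Tet-PTF1a from 4.97, 4.70, 5.06 and 5.17 CPM in Control to 11.1, 12.7, 11.3 and 10.9 CPM in Dox. No library of either group came near the other group, in a line where 20.8% of genes did not overlap in this direction. The rise was 2.27-fold, a log2 fold change of 1.19 ± 0.079 (SE; edgeR FDR = 3.42e-18). The gene rested on 84 to 211 counts in the Control and 194 to 358 counts in the Dox libraries, and it was called in all 17 alternative fits, at 1.14 to 1.22. ERBB3 ranged from 2.71 to 3.42 CPM in Tet-One Control and from 1.82 to 3.29 CPM in Tet-One Dox, with overlapping groups (log2 fold change -0.13, 95% interval -0.55 to 0.29). In Tet-MIST1 it ranged from 4.47 to 5.83 CPM in Control and from 4.24 to 5.24 CPM in Dox, again with overlap (-0.083, interval -0.30 to 0.13).

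The ERBB3 response of Tet-PTF1a differed from that of Tet-One by 1.32 ± 0.20 on the log2 scale (SE; edgeR FDR = 0.000203), where 12.9% of 13506 genes differed, 5.52% higher and 7.34% lower. It differed from that of Tet-MIST1 by 1.28 ± 0.12 (SE; edgeR FDR = 4.1e-08). Both differences were called in all 24 alternative fits.

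NRG1, the ERBB3 ligand neuregulin 1 (chromosome 8, plus strand), fell in both lines with a transgene. In Tet-PTF1a it went from 12.4, 11.8, 11.9 and 12.3 CPM in Control to 5.40, 5.80, 5.72 and 5.09 CPM in Dox. The groups were far apart, in a line where 21.4% of genes did not overlap in this direction. NRG1 was 2.21-fold lower (log2 fold change -1.14 ± 0.077, SE; edgeR FDR = 3.54e-18). In Tet-MIST1 it went from 15.9, 14.3, 15.7 and 13.2 CPM in Control to 9.56, 10.3, 10.9 and 11.9 CPM in Dox. Here too no Dox library reached the lowest Control library, as for 14.4% of genes in that line. NRG1 was 1.38-fold lower (-0.46 ± 0.082, SE; edgeR FDR = 0.0027). Both calls held in all 17 alternative fits.

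In Tet-One, NRG1 ranged from 1.44 to 1.89 CPM in Control and from 1.26 to 1.66 CPM in Dox, on 45 to 74 counts, and did not pass (log2 fold change -0.12, 95% interval -0.44 to 0.18). The response in Tet-PTF1a differed from that in Tet-One by -1.01 ± 0.14 on the log2 scale (SE; edgeR FDR = 7.94e-05) and from that in Tet-MIST1 by -0.67 ± 0.11 (SE; edgeR FDR = 6.16e-05). Both differences were called in all 24 alternative fits. The response in Tet-MIST1 was not shown to differ from that in Tet-One (log2 difference -0.34, 95% interval -0.67 to -0.0082; edgeR FDR = 0.421). None of the 7 members passed in that comparison, where 1.67% of 13859 genes did by edgeR (1.49% higher, 0.188% lower) and 2 members (HBEGF and NRG1) had an unadjusted p under 0.05, at 0.0271 and 0.0452.

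**Figure D3:**
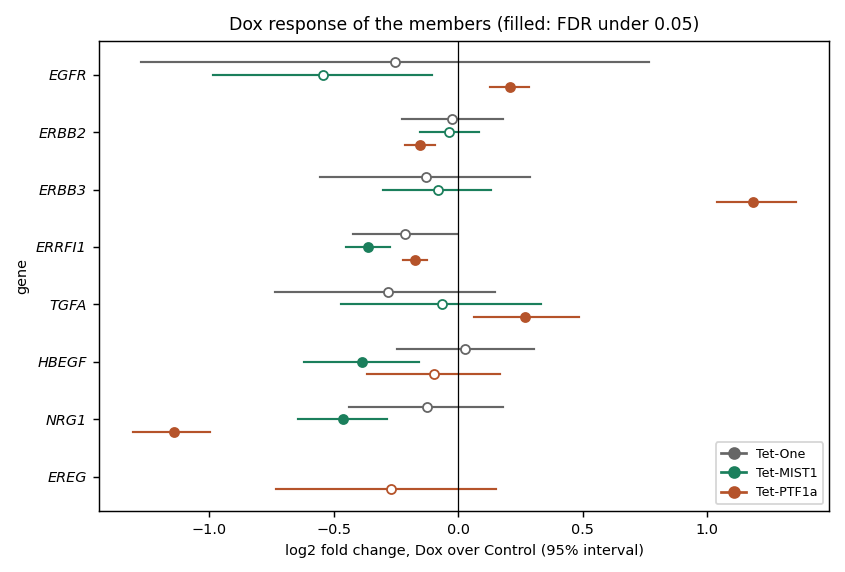
Log2 fold change of Dox over Control (x axis) with its 95% interval for each member (y axis) in Tet-One, Tet-MIST1 and Tet-PTF1a, filled where the FDR is under 0.05. ERBB3 at 1.19 and NRG1 at -1.14 in Tet-PTF1a lie farthest from 0, and the Tet-One interval of EGFR runs from -1.27 to 0.77.

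The EGFR ligands were expressed at low levels in most groups. TGFA (chromosome 2, 70674412 to 70781147, minus strand) stood at 4.13, 3.86, 3.52 and 3.73 CPM in Tet-PTF1a Control and at 4.08, 4.62, 4.64 and 5.03 CPM in Tet-PTF1a Dox. Only the first Dox library lay within the Control range. The log2 fold change of 0.27 ± 0.11 (SE) passed narrowly (edgeR FDR = 0.0281) on 69 to 175 counts per library. The call was lost with DESeq2 (adjusted p = 0.0964), without the third or the fourth Control library (edgeR FDR = 0.0656 and 0.073), without the fourth Dox library (edgeR FDR = 0.155) and with all 24 libraries in 1 fit (edgeR FDR = 0.166). In Tet-One and Tet-MIST1, TGFA lay between 0.717 and 1.48 CPM in all libraries and did not pass the test. The TGFA response of Tet-PTF1a was above that of Tet-One by 0.55 on the log2 scale (95% interval 0.14 to 0.99), which did not pass over all genes (edgeR FDR = 0.0835). It passed without the second Control library of Tet-One (0.64, edgeR FDR = 0.0443), without its first Dox library (0.66, edgeR FDR = 0.0131) and with library size scaling (0.61, edgeR FDR = 0.0443). Against Tet-MIST1 the difference was 0.34 (interval -0.063 to 0.77).

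HBEGF, the heparin-binding ligand (chromosome 5, 139712428 to 139726188, minus strand), fell in Tet-MIST1 from 36.3, 33.5, 30.6 and 33.1 CPM in Control to 27.7, 19.8, 24.3 and 29.6 CPM in Dox. All Dox libraries were below all Control libraries, as for 27.1% of genes in either direction in that line. The log2 fold change was -0.39 ± 0.11 (SE; edgeR FDR = 0.0243), and the call was lost without the first or the second Control library or the third Dox library (edgeR FDR = 0.0806, 0.0564 and 0.0675). HBEGF did not pass in Tet-One (4.77 to 5.74 CPM in Control, 4.47 to 5.95 CPM in Dox) or in Tet-PTF1a (2.91 to 4.12 and 2.18 to 3.86 CPM). The HBEGF response of Tet-MIST1 differed from that of Tet-One by -0.42 (95% interval -0.79 to -0.055), which did not pass over all genes (edgeR FDR = 0.329), and that of Tet-PTF1a from that of Tet-MIST1 by 0.30 (interval -0.16 to 0.76).

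EREG, epiregulin (chromosome 4, 75230860 to 75254477, plus strand), was near the detection limit of Tet-PTF1a. Its values were 1.13, 1.12, 0.893 and 1.26 CPM in Control and 1.09, 0.518, 0.875 and 1.13 CPM in Dox, on 11 to 48 counts. The groups overlapped (log2 fold change -0.27, 95% interval -0.73 to 0.15).

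ERRFI1, the receptor inhibitor also known as MIG6 (chromosome 1, 8071779 to 8086393, minus strand), had the highest counts of the members and fell in both lines with a transgene. In Tet-MIST1 it went from 549, 534, 534 and 529 CPM in Control to 400.1, 428, 419 and 409.7 CPM in Dox. The fall was 1.29-fold (log2 fold change -0.36 ± 0.041, SE; edgeR FDR = 0.000131). In Tet-PTF1a it went from 909, 852, 825 and 832 CPM to 750.4, 777, 749 and 754 CPM, a log2 fold change of -0.17 ± 0.024 (SE; edgeR FDR = 1.76e-07). In neither line did the groups overlap, and both calls held in all 17 alternative fits.

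Tet-One cells gave ERRFI1 values of 1199.7, 1040.9, 1133 and 1007 CPM in Control and 862, 937, 945 and 1026 CPM in Dox. All 4 Dox libraries were below the Control mean but the groups overlapped, and the log2 fold change of -0.21 (95% interval -0.42 to -0.0029) did not pass (edgeR FDR = 0.897). The responses of Tet-MIST1 and Tet-PTF1a were not shown to differ from it (log2 differences -0.16, interval -0.35 to 0.040, and 0.038, interval -0.16 to 0.24). The response of Tet-PTF1a was smaller in size than that of Tet-MIST1 by 0.20 ± 0.049 (SE; edgeR FDR = 0.00293).

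The promoters of TGFA, HBEGF and ERRFI1 are shown because MIST1 and PTF1a bind E boxes, the hexamer CANNTG, and these genes moved in at least 1 of the lines. EGFR and ERBB2 also moved in Tet-PTF1a and had entries, and their windows are given below as counts only. The 250 bases before the RefSeq start were searched in 7 members with an entry in the RefSeq promoter table (GRCh38.p14); ERBB3 and NRG1 had none. Capitals mark each CANNTG, which is its own reverse complement as a pattern, so 1 strand covers both.
TGFA, chr2:70553827-70554076, minus strand: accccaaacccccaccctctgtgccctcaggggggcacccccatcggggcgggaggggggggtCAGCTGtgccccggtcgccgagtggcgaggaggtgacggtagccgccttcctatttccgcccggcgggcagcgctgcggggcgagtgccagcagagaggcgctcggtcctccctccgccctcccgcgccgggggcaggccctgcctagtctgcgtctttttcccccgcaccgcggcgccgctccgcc
HBEGF, chr5:140346604-140346853, minus strand: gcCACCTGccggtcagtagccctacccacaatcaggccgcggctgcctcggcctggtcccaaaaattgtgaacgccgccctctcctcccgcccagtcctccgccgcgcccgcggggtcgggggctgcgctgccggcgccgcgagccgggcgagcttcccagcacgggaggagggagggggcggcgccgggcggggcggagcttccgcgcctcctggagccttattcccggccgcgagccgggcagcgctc
ERRFI1, chr1:8026310-8026559, minus strand: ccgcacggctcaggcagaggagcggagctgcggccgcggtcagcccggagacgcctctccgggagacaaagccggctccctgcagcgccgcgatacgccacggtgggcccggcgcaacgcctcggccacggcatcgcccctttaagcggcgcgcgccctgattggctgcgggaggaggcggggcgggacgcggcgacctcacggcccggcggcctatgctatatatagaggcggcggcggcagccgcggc
The TGFA window held 1 CANNTG, which was CAGCTG, the HBEGF window held 1, CACCTG, and the ERRFI1 window held 0. Of 35114 such windows in the table, 61.8% held a CANNTG and 14% held CAGCTG. Of the windows not printed, those of ERBB2 and of the upstream EGFR entry held 0, the downstream EGFR entry and EREG held 2 each, and AREG and a second TGFA entry held 1 each. A match or its absence in these letters describes the window and says nothing of binding.

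Before any Dox was added, the clones already differed in most genes, and the members were called at a similar rate. Between the Control groups, 81.7% of 13504 genes differed for Tet-MIST1 against Tet-One (40.3% higher, 41.4% lower) and 80.1% for Tet-PTF1a against Tet-One (40.2% higher, 39.9% lower), and 6 of 7 members were called in each. NRG1 was 8.93-fold higher in Tet-MIST1 and 6.94-fold higher in Tet-PTF1a than in Tet-One (log2 fold changes 3.16 ± 0.088 and 2.80 ± 0.094, SE). HBEGF was 6.36-fold higher in Tet-MIST1 and 1.57-fold lower in Tet-PTF1a. EGFR and ERBB2 were 2.59-fold and 2.65-fold lower in Tet-MIST1, whereas in Tet-PTF1a ERBB2 was 1.14-fold lower.

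EGFR did not pass in the Control comparison of Tet-PTF1a with Tet-One (log2 fold change 0.081, 95% interval -0.10 to 0.26), and with the exon length trend removed it was -0.18 (edgeR FDR = 0.0209). ERBB3 was 1.69-fold higher in Tet-MIST1 and 1.54-fold higher in Tet-PTF1a, TGFA was 2.89-fold higher in Tet-PTF1a, and ERRFI1 was 2.04-fold lower in Tet-MIST1 and 1.35-fold lower in Tet-PTF1a. TGFA in Tet-MIST1 did not pass (log2 fold change -0.23, edgeR FDR = 0.189), and was called at -0.39 (edgeR FDR = 0.0305) without the fourth Control library of Tet-MIST1. The edgeR FDR of the member calls was 5.64e-05 or lower in each.

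For all 7 members listed in every line, the lowest and the highest group mean came from different lines. This was not counted over all genes, of which 81.7% (Tet-MIST1) and 80.1% (Tet-PTF1a) already differed from Tet-One in Control. EGFR was lowest in Tet-MIST1 Dox and highest in Tet-PTF1a Dox, a 4.91-fold span in deposited CPM, with overlap between the neighbours Tet-One Dox, Tet-One Control and Tet-PTF1a Control, and between Tet-MIST1 Control and Tet-One Dox through the first Dox library of Tet-One. HBEGF spanned 10.4-fold from Tet-PTF1a Dox to Tet-MIST1 Control, and NRG1 10.1-fold from Tet-One Dox to Tet-MIST1 Control. For NRG1, Tet-PTF1a Dox lay between the Tet-One groups and the other groups, without overlap with either neighbour. ERBB3 was lowest in Tet-One Dox and highest in Tet-PTF1a Dox, where no other group came near, a 4.13-fold span. Without the first Dox libraries of Tet-One and Tet-MIST1, an alternative chosen after seeing the data, the ERBB3 mean of Tet-One Dox was 3.11 CPM, above the 3.06 CPM of Tet-One Control, and the ERBB3 span was 3.76-fold from Tet-One Control. The EGFR span was then 4.24-fold, with 76.8 CPM in Tet-MIST1 Dox and 266 CPM in Tet-One Dox, and the HBEGF and NRG1 spans were 10.4-fold and 10.03-fold.

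Per kilobase of listed exon, ERRFI1 had the highest level of the members in every group, at 132 to 350 RPKM (group means computed from the deposited CPM). EGFR followed at 32.1 to 49.5 RPKM in Tet-One and Tet-PTF1a, whereas in Tet-MIST1 EGFR (14.8 RPKM in Control, 10.1 in Dox) and HBEGF (14.2 and 10.7) lay close together. Without the first Dox library of Tet-MIST1, EGFR was at 11.7 and HBEGF at 10.4 RPKM in Tet-MIST1 Dox. Of the summed RPKM of the 3 receptors, ERBB3 made up 1.35% ± 0.059 (SD, n = 4) in Tet-PTF1a Control and 2.83% ± 0.14 in Tet-PTF1a Dox. In Tet-One Control its share was 0.88% ± 0.087 and in Tet-MIST1 Control 3.81% ± 0.54. ERBB3 thus remained the smallest of the 3 receptor transcripts in every group.

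A wider list of 60 genes of the EGF receptor pathway, in 7 classes, was described in the same way. In Tet-PTF1a 22 of the 55 listed genes rose, 12 fell and 21 did not pass, or 61.8% called beside 48.2% of all genes, and their median log2 fold change was 0.058 beside 0.0014 for all genes. The 22 include NRG4, which was listed through its Dox libraries alone. In Tet-MIST1 1 of the 53 listed genes rose, 11 fell and 41 did not pass, or 22.6% called beside 20.6%, with a median of -0.069 beside -0.0036. In Tet-One none of 53 was called. The count in Tet-MIST1 was 4 without the third Control library and 6 without the first. In Tet-PTF1a the called share was 33.3% for adaptors and ubiquitin ligases, 50% for the RAS and MAPK cascade and 54.5% for feedback inhibitors. It was 71.4% for PI3K and AKT, 75% for sheddases, 81.8% for MAPK output genes and 100% for the other ligands and ERBB4. In Tet-MIST1 these shares were 33.3%, 10%, 36.4%, 0%, 25%, 27.3% and 0% in the same order.

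Of the other ligands and ERBB4, all 3 genes listed for Tet-PTF1a were called higher, but NRG4 was listed through its Dox libraries alone. NRG4, a neuregulin that binds ERBB4, rose from 0.2995 ± 0.084 to 0.812 ± 0.22 CPM (SD, n = 4; log2 fold change 1.21, edgeR FDR = 0.00014). NRG4 lay at 0.224 to 0.397 CPM in Control, under the filter of 0.5 CPM, and at 0.613 to 1.09 CPM in Dox. With Control below the filter, only a rise could bring NRG4 into the list, so its direction is no result. NRG4 rested on 4 to 13 counts in Control and 13 to 22 counts in Dox, and it fell below the filter on low counts, so that it was not tested, when any 1 Dox library was left out, in the fit of all 24 libraries and with at least 10 counts required in every library. ERBB4, the remaining receptor of the family, rose from 2.93 ± 0.55 to 4.69 ± 0.77 CPM (0.59, edgeR FDR = 0.000165). Of the sheddases and their regulators, 3 of 4 rose in Tet-PTF1a, the largest change being 0.46 for RHBDF1, an inactive rhomboid that regulates ADAM17. In Tet-MIST1 ADAM17, the main protease of EGFR ligands, was the only 1 of 4 called, at -0.20 (edgeR FDR = 0.0472). This call was lost without any 1 of the 4 Control libraries or without the third or the fourth Dox library (edgeR FDR = 0.0645 to 0.13), with library size scaling (edgeR FDR = 0.0536), with the replicate block (edgeR FDR = 0.0978) and with all 24 libraries in 1 fit (edgeR FDR = 0.269).

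Of the adaptors and ubiquitin ligases, 2 of 9 rose and 1 fell in Tet-PTF1a. SHC1, an adaptor of activated receptors, fell from 497 ± 10.6 to 337 ± 6.3 CPM (SD, n = 4; log2 fold change -0.56, edgeR FDR = 1.7e-27), and the phosphatase gene PTPN11 rose by 0.13. In Tet-MIST1 3 of 9 fell, CBL, the ligase that marks EGFR for degradation, the most, at -0.44 (edgeR FDR = 0.0226). This CBL call was lost without the first or the third Control library (edgeR FDR = 0.0765 and 0.0623) and with all 24 libraries in 1 fit (edgeR FDR = 0.131), and the value was -0.31 without the first Dox library (edgeR FDR = 0.000177).

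Of the feedback inhibitors, 5 of 11 rose and 1 fell in Tet-PTF1a. LRIG1, a membrane protein that promotes loss of EGFR family receptors, rose from 7.76 ± 0.32 to 16.1 ± 0.65 CPM (SD, n = 4; log2 fold change 1.06, edgeR FDR = 2.95e-19). SPRY4, a Sprouty inhibitor of receptor signalling, fell by 0.38 on the log2 scale. In Tet-MIST1 4 of 11 fell and none rose, SPRY2 the most, from 35.8 ± 0.12 to 29.7 ± 1.5 CPM (-0.26, edgeR FDR = 0.00434).

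Of the MAPK output genes, 5 of 11 rose and 4 fell in Tet-PTF1a. EGR1, an immediate early transcription factor, rose in both lines with a transgene, from 7.82 ± 0.66 to 17.6 ± 1.9 CPM in Tet-PTF1a (SD, n = 4; log2 fold change 1.17, edgeR FDR = 6.73e-18) and from 3.45 ± 0.43 to 4.85 ± 0.71 CPM in Tet-MIST1 (0.49, edgeR FDR = 0.0153). FOSL1, an AP-1 subunit, fell from 113 ± 3.2 to 74.9 ± 1.9 CPM in Tet-PTF1a (-0.60, edgeR FDR = 5.1e-23). ETV4, an ETS factor, fell in Tet-MIST1 by 0.26 on the log2 scale (edgeR FDR = 0.00387).

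Of the RAS and MAPK cascade, 3 of 10 rose and 2 fell in Tet-PTF1a, with MAP2K1 at 0.13 and MAPK3 at -0.23 as the largest in each direction, and in Tet-MIST1 MAPK3 alone passed, at -0.19 (edgeR FDR = 0.0148). That call was lost without the third Control library (edgeR FDR = 0.0561) and with the replicate block (edgeR FDR = 0.0607). Of the PI3K and AKT genes, 1 of 7 rose (PIK3CA, 0.30) and 4 fell (PIK3CB the most, -0.26) in Tet-PTF1a, and none of 7 passed in Tet-MIST1.

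**Figure D4:**
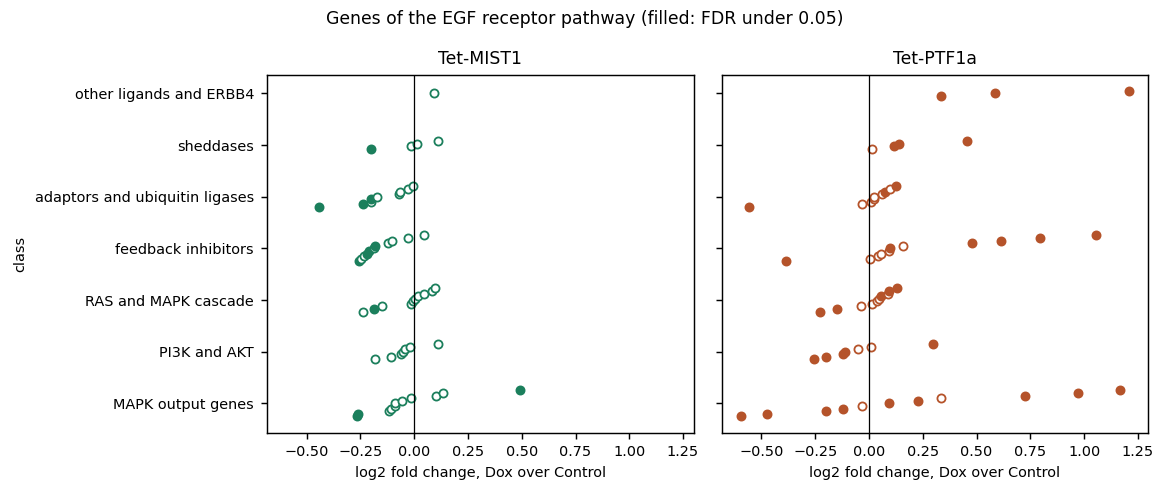
Log2 fold change of Dox over Control (x axes) for each listed gene of the 7 pathway classes (y axis) in Tet-MIST1 and Tet-PTF1a, filled where the FDR is under 0.05. The points of Tet-MIST1 lie between -0.44 and 0.49, and those of Tet-PTF1a reach from -0.60 to 1.21. The point at 1.21 is NRG4, listed through its Dox libraries alone.

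The genes whose levels followed the leading members most closely were found by Pearson's r of log2 CPM over the 24 libraries, each line centred on its Control mean, among 13007 genes. For ERBB3 these were SH2B3, an adaptor of cytokine signalling (r = 0.975), NAV1 (r = 0.974) and PLD1, a phospholipase D (r = 0.974). For NRG1, which led the falls in both lines, they were NT5E, the ecto-nucleotidase CD73 (r = 0.963), LINC00261, a long non-coding RNA (r = 0.959), and PYGB, glycogen phosphorylase of brain type (r = 0.951). The 24 points share lines, Dox and depth, so these values are a description.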

How the data were processed

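Polyadenylated RNA of 24 Panc-1 libraries was measured by paired-end RNA-seq. The authors aligned the reads with TopHat to hg19, and their processing notes also name HTSeq, DESeq and edgeR, without versions; the strand setting of the counting was not given in the sources used here. Each deposited table, 1 per line, gives raw counts per gene as counted by the authors and a CPM signal scaled by the authors. From the counts and the CPM, Tet-One and Tet-MIST1 (13879 genes each) appear to have been scaled together and Tet-PTF1a (14053 genes) alone. CPM levels set between Tet-PTF1a and the other lines thus come from separate scalings. The deposited log2 fold changes, p-values and FDRs of the authors' own Dox comparison were not used. No exon of a member overlapped another listed gene. The 20 date-like gene names of each table were left out of joins.

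The raw counts were tested with edgeR 4.0.16 (R 4.3.3; TMM scaling, quasi-likelihood F test) on genes above 0.5 CPM in at least 4 libraries, within each line, and as line by Dox interactions and Control comparisons over joined tables. Fold changes used a prior count of 2. Intervals are 95% intervals of the fit. The fits that join tables used genes common to them. Alternatives were DESeq2 1.42.0, library size and upper quartile scaling, other filters, an exon length trend removed, a replicate block, all 24 libraries in 1 fit, and each library left out. In a test on simulated data, where 200 genes had a true log2 change of 1, 99% were recovered for Tet-PTF1a (13097 genes) and 100% for Tet-MIST1 (12892 genes), with 6.16% and 6.54% of the calls false, above the 5% set by the FDR. The simulation used 1 spread for all genes and lines and no library that stood apart. The estimated biological coefficient of variation was 2.8% in Tet-PTF1a, 6.6% in Tet-MIST1 and 14.4% in Tet-One. Smaller changes were not simulated, so these rates do not carry over to the calls reported here.

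Depth was 17210989 to 43018494 counts per library over the listed genes. No pair of replicates agreed within sampling noise (ratio of chi-square to its degrees of freedom 1.39 to 236, 36 pairs). The study calls the 4 libraries biological replicates; p-values measure the spread between these libraries. The members and gene lists were chosen with earlier results of these data known. Besides the 9 members, the pathway genes named were the called gene with the largest rise and the largest fall in each class in Tet-MIST1 and Tet-PTF1a, and the 3 most similar genes of each member with the largest rise or fall; ERBB4 was added after its values were seen.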

Additional observations from a re-analysis of the deposited data

Results flagged for a closer look

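There were 3 values that lay far from the other 3 libraries of their group by Dixon's criterion, among 44 groups of 4 libraries examined, of which chance gives about 1 in 20. EGFR was at 45.8 CPM in the first Dox library of Tet-One and at 35.0 CPM in the first Dox library of Tet-MIST1. ERRFI1 was at 777 CPM in the second Dox library of Tet-PTF1a, above the other 3. Across 13859 genes, the deviations of the first Dox library of Tet-One and of Tet-MIST1 from their groups had a Pearson r of 0.787, which is across genes that are not independent.

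Dox responses that differed between lines by the interaction test were, against Tet-One, those of ERBB3 (1.32) and NRG1 (-1.01) in Tet-PTF1a. Between Tet-PTF1a and Tet-MIST1 they were those of EGFR (0.77), ERBB3 (1.28), NRG1 (-0.67) and ERRFI1 (0.20), on the log2 scale.

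A further 7 pathway genes were called lower in Tet-MIST1 and higher in Tet-PTF1a, and were picked for that after their values were seen, so their differences are descriptions. Of all genes, 8.77% were called lower in Tet-MIST1 and 23.8% higher in Tet-PTF1a. The share of all genes called in both ways was not computed. The log2 differences between the responses of the lines were 0.36 for ADAM17, 0.38 for PTPN11, 0.32 for SPRY1, 0.75 for SPRY2, 0.82 for DUSP6, 1.25 for ETV4 and 0.37 for EPHA2. Among these, DUSP6 and ETV4, which respond to ERK signalling, went from 29.7 to 26.0 and from 39.1 to 32.3 CPM in Tet-MIST1, and from 45.3 to 70.0 and from 13.7 to 27.0 CPM in Tet-PTF1a.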

How the results depend on the processing

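Counts of members called were within 1.5 times the reported count in all but 3 of the alternatives. With all 24 libraries in 1 fit, 3 members in Tet-PTF1a (ERBB3, NRG1, ERRFI1) and 18 pathway genes were called. Leaving out 1 library gave 2 to 4 members in Tet-MIST1, 5 to 6 in Tet-PTF1a and 2 to 4 in the response of Tet-PTF1a against Tet-One, the 4 being without the first Dox library of Tet-One (TGFA and ERBB2 added). Without the first Dox libraries of Tet-One and Tet-MIST1, 1 member (EGFR) differed between these lines, against 0 with any 1 library left out. Pathway genes called in Tet-MIST1 were 7 with all 24 libraries and 4 to 18 with 1 library left out.

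Directions reversed only for values that had not passed, and 1 of these passed in the other direction, EGFR between the Control groups of Tet-PTF1a and Tet-One at -0.18 with the length trend removed. With 1 library left out, log2 fold changes in Tet-One were -0.41 to 0.077 for EGFR, -0.072 to 0.039 for ERBB2, -0.22 to 0.022 for ERBB3 and -0.034 to 0.0995 for HBEGF. In Tet-MIST1 they were -0.061 to 0.0030 for ERBB2 and -0.16 to 0.094 for TGFA, and in Tet-PTF1a -0.19 to 0.016 for HBEGF. The responses against Tet-One were -0.0080 to 0.084 for ERRFI1 in Tet-PTF1a, and -0.085 to 0.030 for ERBB2 and -0.12 to 0.13 for ERBB3 in Tet-MIST1, the last being -0.053 without both first Dox libraries. With library size scaling, HBEGF in Tet-One was -0.00099 and ERBB2 in Tet-MIST1 against Tet-One 0.0022. With the length trend removed, alone and with the block, ERBB2 was 0.049 and 0.049 and HBEGF -0.024 and -0.026 in Tet-One, and ERBB2 was 0.036 and 0.034 and ERBB3 0.0013 and 0.0042 in Tet-MIST1. The cause was not tested.

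The same replicate numbers did not pair the libraries (correlations of deviations -0.406 to 0.364, best with the own number in 1 of 12 Control libraries). With a replicate block, 5 pathway genes were called in Tet-MIST1 and no member count changed. Over all genes, calls in Tet-MIST1 were 1463 with the block, 1703 with all 24 libraries and 1436 to 3770 with 1 library left out, against 2812; in Tet-PTF1a 3128 with all 24 libraries against 6775; between Tet-MIST1 and Tet-One 499 with DESeq2, 83 with the block, 628 with the length trend removed and 1960 without the first Dox library of Tet-One, 144 to 146 without the first, the third or the fourth Control library of Tet-MIST1 and 2212 without both first Dox libraries, against 232; between Tet-PTF1a and Tet-One 2668 with the length trend removed and 4146 without that library, against 1738. Library size scaling split the Tet-PTF1a calls 4392 higher to 2698 lower, against 3344 to 3431. Members under about 100 counts per library (TGFA, EREG, NRG1 in Tet-One), and NRG4 among the pathway genes, have the least precision. With TMM over 24 libraries in place of the deposited scaling, 5 of the group means of the 7 members listed in every line moved by more than their SD and 37 did not.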
